A study of Mus musculus with 79 samples.

Results

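The genes described here are those that a mucus-producing (goblet) cell of the airway is known for: the gel-forming mucins Muc5ac and Muc5b, the secreted proteins Clca3, Itln1, Tff2, Fcgbp and Bpifb1, the mucin-folding protein Agr2, and the transcription factors Spdef and Foxa3. Each was found among the rows of the array by its symbol or a synonym, and all 10 were found, each on 1 row. They are 10 of 21837 rows that carry a gene symbol, in a table of 31350 rows and 79 mouse lungs. Clca3 is listed under the current symbol Clca1 in the RefSeq gene table and is not the same gene as Clca3b, which is also on the array.

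RNA of the whole right lung was measured on Affymetrix Mouse Gene 2.1 arrays in C57BL/6J wild-type (WT) mice and in littermates that carried the Scnn1b transgene (βENaC mice), which is driven in the airway epithelium and serves as a model of chronic bronchitis. Males and females, 5 to 7 weeks old, breathed mainstream and side-stream smoke of 6 reference cigarettes per day, or room air (sham), on 1 day or on 5 consecutive days, and the lung was taken 4 h after the last exposure. Genotype, exposure, sex and duration gave 16 groups of 4 to 6 mice. After 1 day there were 10 mice of each genotype and exposure, and after 5 days 11 sham-exposed and 9 smoke-exposed WT mice and 9 sham-exposed and 10 smoke-exposed βENaC mice. Each array is 1 mouse, and all values are log2 intensities, so a difference of 1 is a 2-fold difference in signal. A level cannot be compared between genes, because every gene has its own probes.

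Mucus is made by secretory cells that pack gel-forming mucins into granules and release them onto the airway surface. In the healthy mouse airway few cells hold visible mucin, Muc5b is made at a steady level by club cells, and Muc5ac, Clca3 and Fcgbp belong to the programme that is switched on when club cells turn into goblet cells, as they do under the type 2 cytokines IL-4 and IL-13. Excess sodium uptake through the transgenic channel dries the airway surface, and these mice are known for mucus plugs and for more goblet cells.

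The Scnn1b probe separated the genotypes, at 8.42 to 9.47 in the WT mice and 11.52 to 11.88 in the βENaC mice. The source names of 13 smoke-exposed WT mice read βENaC, whereas their titles read WT. In these 13 mice Scnn1b was at most 9.47, and they were kept as WT. A total of 4 mice stood apart in markers of other tissues. A smoke-exposed βENaC female after 5 days (replicate 5) had squamous epithelium markers at 8.23 against at most 3.47 in all other mice. Skeletal muscle markers were at 9.85 in a smoke-exposed WT female after 5 days and at 9.36 in a sham-exposed WT male after 1 day, and thymus markers were at 7.13 in a smoke-exposed βENaC female after 1 day. Results that changed when these 4 mice were left out are given with the value without them.

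The promoters of 6 of the 10 genes, the 250 bases before the transcription start, were in the RefSeq table (mouse build GRCm38.p6), with 7 entries, since Bpifb1 had 2. The 4 shown belong to members that differed between the genotypes below, and the capitals mark matches to the motifs searched. Their positions are chr12:35992675-35992924 on the plus strand for Agr2, chr2:154190568-154190817 on the plus strand for the first Bpifb1 entry, chr7:28070986-28071235 on the plus strand for Fcgbp and chr1:171535295-171535544 on the minus strand for Itln1.
Agr2: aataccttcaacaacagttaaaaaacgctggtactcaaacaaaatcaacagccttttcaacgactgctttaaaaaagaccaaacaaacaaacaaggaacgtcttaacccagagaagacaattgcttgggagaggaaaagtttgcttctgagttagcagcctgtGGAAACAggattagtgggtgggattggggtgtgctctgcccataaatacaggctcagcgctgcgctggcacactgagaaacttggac
Bpifb1: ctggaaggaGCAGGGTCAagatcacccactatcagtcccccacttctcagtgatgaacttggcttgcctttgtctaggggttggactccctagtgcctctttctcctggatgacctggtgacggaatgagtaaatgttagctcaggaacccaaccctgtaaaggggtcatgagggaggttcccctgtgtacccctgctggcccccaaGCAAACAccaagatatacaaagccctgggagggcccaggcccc
Fcgbp: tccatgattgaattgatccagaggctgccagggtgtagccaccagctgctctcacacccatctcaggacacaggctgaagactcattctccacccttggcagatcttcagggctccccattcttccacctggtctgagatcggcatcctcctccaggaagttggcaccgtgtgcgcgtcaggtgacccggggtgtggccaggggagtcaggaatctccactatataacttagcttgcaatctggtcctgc
Itln1: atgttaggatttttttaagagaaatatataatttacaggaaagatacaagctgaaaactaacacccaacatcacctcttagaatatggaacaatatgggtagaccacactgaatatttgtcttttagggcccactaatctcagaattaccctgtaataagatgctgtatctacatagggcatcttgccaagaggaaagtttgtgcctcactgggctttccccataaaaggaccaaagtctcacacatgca

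5 motifs were searched on both strands. The forkhead motif TGTTTNC, of the family that holds FOXA3, was on the opposite strand 87 to 81 bases before the start of Agr2 and 43 to 37 bases before the start of Bpifb1, and 17.8% of all 32851 promoters in the table hold it. The core of the antioxidant response element, TGACNNNGC, was on the opposite strand 241 to 233 bases before the Bpifb1 start, against 10.2% of all promoters. The Fcgbp and Itln1 windows and the second Bpifb1 entry, at chr2:154200130-154200379, held none of the 5. The STAT6 motif, TTC and GAA with 4 bases between them (5.85% of all promoters), and the SPDEF motif CCGGAT (4.94%) were in none of the member promoters searched, and the core of the xenobiotic response element, GCGTG (28.2%), was 177 to 173 bases before the start of Spdef and 214 to 210 bases before that of Foxa3. A match is a run of letters and no measurement of binding.

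The first comparison was between genotypes. Most members were higher in the lungs of βENaC mice at both durations, from Itln1 and Clca3, which rose most, to Bpifb1, which rose least of those called, while the transcription factors Spdef and Foxa3 did not pass the test. A row was called when its limma adjusted p was under 0.05 and its difference over 1.3-fold, in a fit with genotype, exposure and sex. In every comparison where limma called no member, an ordinary linear model called none either, except that the change with duration between genotypes was fitted with limma alone. After 1 day 7 of the 10 members were called, all 7 higher in βENaC, where 1.14% of all rows were called higher in βENaC. After 5 days 8 were called higher, against 1.88% of all rows. The median difference over the 10 members was 0.74 after 1 day and 1.00 after 5 days on the log2 scale, while the median over all rows was 0.0024 and −0.012. In RNA of whole lung, more cells of a type and more RNA per cell cannot be told apart.

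**Figure D1:**
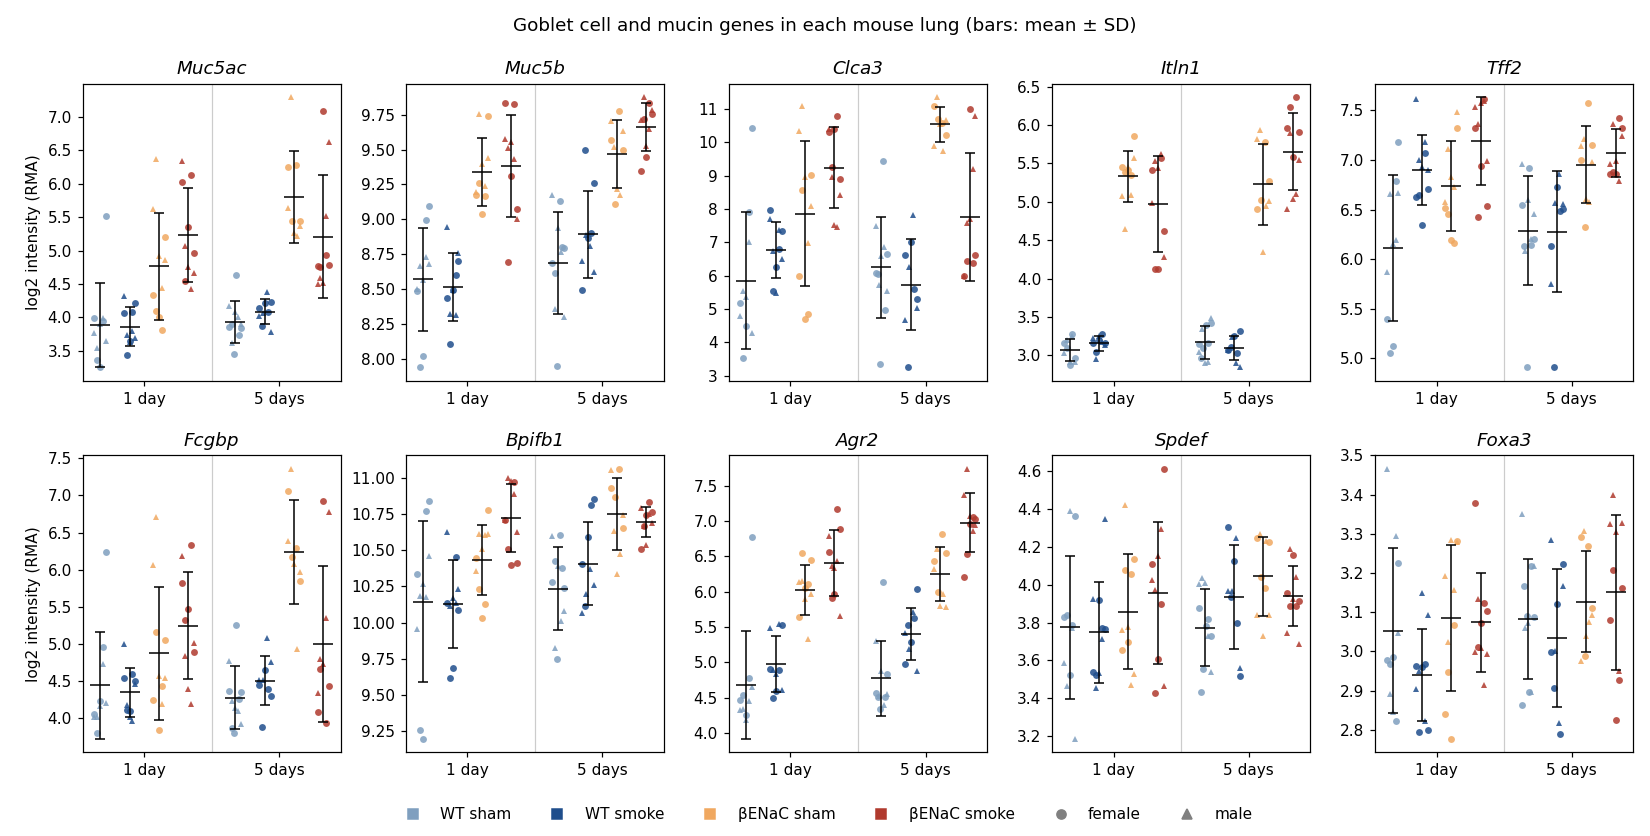
Log2 intensity of the 10 genes (y axis, a separate scale in each panel) in every mouse by duration (x axis), with genotype and exposure as colours, females as circles, males as triangles and bars for the mean ± SD of 9 to 11 mice. After 5 days Itln1 is above every WT mouse in all 19 βENaC mice, and 8 of 10 smoke-exposed βENaC mice have Clca3 below every sham-exposed βENaC mouse.

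The gel-forming mucins lie near each other on chromosome 7. Muc5ac (NM_010844), the mucin induced in goblet cells, had a lowest, median and highest level of 3.81, 4.89 and 6.38 in the 20 βENaC mice and of 3.25, 3.78 and 5.51 in the 20 WT mice after 1 day. After 5 days the levels were 4.49, 5.37 and 7.29 in 19 βENaC mice and 3.45, 4.02 and 4.63 in 20 WT mice. After 1 day 5 of 20 βENaC mice were above every WT mouse, a count set by 1 sham-exposed WT female (replicate 5, at 5.51), and 17 were above all the other WT mice. After 5 days 16 of 19 were above every WT mouse, and all 19 were above the WT mice other than the sham-exposed female replicate 4. The WT mice left out here, and for Clca3, Fcgbp and Agr2 below, were picked as the highest. Counts without them can only be as large or larger, and the share of all rows was not taken for such counts. Muc5ac was 2.17-fold higher in βENaC mice after 1 day (log2 difference 1.12, SE 0.196, limma adjusted p = 0.000171) and 2.84-fold higher after 5 days (1.51, SE 0.195, adjusted p = 5.72e-07).

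Muc5b (NM_028801), the mucin of the resting airway, ran from 8.70 through 9.36 to 9.83 in βENaC mice and from 7.94 through 8.54 to 9.10 in WT mice after 1 day (lowest, median and highest). After 5 days it ran from 9.11 through 9.64 to 9.87 and from 7.95 through 8.80 to 9.50. The genotypes overlapped in part, with 16 of 20 and 14 of 19 βENaC mice above every WT mouse. Of the 20 WT mice at each duration, 6 after 1 day and 4 after 5 days were above the lowest βENaC mouse. The difference was 0.82 (SE 0.0936, 1.76-fold, limma adjusted p = 7.23e-08) after 1 day and 0.78 (SE 0.0886, 1.71-fold, adjusted p = 4.21e-08) after 5 days. The ratio to WT was thus larger for Muc5ac than for Muc5b, but a difference between these 2 probes was not tested.

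Among the secreted proteins, Itln1 (NM_010584), a lectin that binds microbial sugars, was the member that set the genotypes apart completely. It was at 4.13, 5.40 and 5.86 (lowest, median and highest) in βENaC mice and at 2.88, 3.16 and 3.28 in WT mice after 1 day, and at 4.34, 5.55 and 6.36 against 2.84, 3.10 and 3.48 after 5 days. No βENaC mouse overlapped a WT mouse at either duration, which held for 0.0415% of all rows after 1 day and 0.0478% after 5 days with βENaC higher. The difference was 4.11-fold after 1 day (2.04, SE 0.117, limma adjusted p = 1.6e-16) and 5.01-fold after 5 days (2.32, SE 0.119, adjusted p = 1.06e-17). The WT levels were near the lower end of the array's range and set no limit on the RNA there. Whether the probes also bind RNA of a related intelectin was not tested.

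Clca3 (NM_017474), a secreted protein stored with mucins in goblet cell granules, had the widest levels of all members. After 1 day it was at 4.70, 8.93 and 11.09 in βENaC mice and at 3.53, 6.39 and 10.43 in WT mice (lowest, median and highest), and after 5 days at 5.99, 9.90 and 11.36 against 3.25, 6.08 and 9.44. The genotypes overlapped at both durations. After 1 day 2 of 20 βENaC mice were above every WT mouse, and 14 were when the WT female at 10.43, the same mouse as for Muc5ac, was left out; after 5 days 11 of 19 were. Clca3 was 4.72-fold higher in βENaC after 1 day (2.24, SE 0.506, limma adjusted p = 0.0035) and 8.89-fold higher after 5 days (3.15, SE 0.476, adjusted p = 9.53e-06). Among mice of the same group its SD was 1.54 over 63 residual degrees of freedom, and only 4 of the 31350 rows varied more. The same SD was 0.70 for Fcgbp and 0.62 for Muc5ac, and it was 0.16 for the median row.

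Fcgbp (NM_001122603), a large protein that cross-links with mucins in the mucus gel, was at 3.84, 4.95 and 6.71 in βENaC mice and at 3.80, 4.19 and 6.24 in WT mice after 1 day. After 5 days it was at 3.93, 5.85 and 7.36 against 3.80, 4.36 and 5.25, and 11 of 19 βENaC mice were above every WT mouse. After 1 day 2 of 20 were, and 10 were without the same WT female, at 6.24. Fcgbp was called after 5 days (1.23, SE 0.242, 2.35-fold, limma adjusted p = 0.000462) and missed the threshold after 1 day (0.67, 95% interval 0.24 to 1.10, adjusted p = 0.0547). A change of this difference with duration was not shown: the test of genotype by duration gave no adjusted p under 0.05 for any member or any row (0% called), and no member had an unadjusted p under 0.05.

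Tff2 (NM_009363), a small trefoil protein co-secreted with mucins, and Bpifb1 (NM_001012392), an abundant secreted protein of the upper airways, rose by less. Tff2 was at 6.16, 6.97 and 7.62 in βENaC mice and at 5.05, 6.66 and 7.61 in WT mice after 1 day, and at 6.32, 6.99 and 7.57 against 4.91, 6.47 and 6.96 after 5 days. The highest mice of the genotypes were level after 1 day, and the lowest WT mice were well under the lowest βENaC mouse. It was 0.46 (SE 0.144, 1.37-fold, limma adjusted p = 0.048) after 1 day, a call lost when any of 27 of the 40 mice was left out, and 0.72 (SE 0.144, 1.64-fold, adjusted p = 0.000605) after 5 days. Bpifb1 was at 10.03, 10.61 and 10.999 against 9.20, 10.17 and 10.84 after 1 day and at 10.33, 10.74 and 11.06 against 9.75, 10.32 and 10.85 after 5 days. Its genotypes overlapped broadly, with 4 βENaC mice above every WT mouse at each duration, and the difference was 1.36-fold (adjusted p = 0.00668) and 1.33-fold (adjusted p = 0.000134).

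Agr2 (NM_011783), a protein disulfide isomerase of the endoplasmic reticulum that mucin assembly requires, was at 5.33, 6.14 and 7.16 in βENaC mice and at 4.18, 4.63 and 6.78 in WT mice after 1 day. After 5 days it was at 5.79, 6.60 and 7.74 against 4.34, 4.93 and 6.14. The same WT female, at 6.78, reached into the βENaC range after 1 day, so that 3 of 20 βENaC mice were above every WT mouse and 19 were when she was left out. After 5 days 15 of 19 were. The difference was 2.62-fold after 1 day (1.39, SE 0.154, limma adjusted p = 3.74e-08) and 2.87-fold after 5 days (1.52, SE 0.134, adjusted p = 1.17e-10).

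The transcription factors of the goblet cell programme were near the lower end of the array's range and did not pass the test. Spdef (NM_013891), which drives goblet cell differentiation, was at 3.43, 3.94 and 4.61 in βENaC mice and at 3.19, 3.77 and 4.39 in WT mice after 1 day, and at 3.69, 3.95 and 4.26 against 3.44, 3.85 and 4.31 after 5 days. The 95% interval of its difference was −0.06 to 0.35 after 1 day (limma adjusted p = 0.506) and −0.00 to 0.28 after 5 days (adjusted p = 0.237). Foxa3 (NM_008260), a forkhead factor that acts beside SPDEF, was at 2.78 to 3.38 in βENaC and 2.80 to 3.47 in WT mice after 1 day, with an interval of −0.02 to 0.19, and the interval was −0.03 to 0.18 after 5 days. Its SD among mice of the same group, 0.159, was at that of the median row, and its values set no limit on the RNA.

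Markers of other cell types moved with the genotype too. The mean level of 5 club cell markers (of 6 listed) was 0.25 lower in βENaC mice after 1 day and 0.34 lower after 5 days. Of the 5, 1 and 3 were called lower (Cckar, Aldh1a7 and Cyp2f2 after 5 days). The share of all rows called lower in βENaC is not given here, so these counts have no background to be read against. The mean of 6 alveolar macrophage markers was 0.38 and 0.46 higher. Marco, Chil3 and Mrc1 were called higher at both durations, where 1.14% and 1.88% of all rows were called higher. None of 8 ciliated, 4 basal and 6 alveolar type 2 cell markers was called for genotype at either duration. After 5 days the club cell mean was 10.89 to 11.30 in smoke-exposed βENaC mice, with 10.91 to 11.28 in sham-exposed βENaC mice, and the alveolar macrophage mean was 9.25 to 10.37 and 9.66 to 10.45. The part of these cells in the members' differences was not tested.

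The second comparison was of smoke with sham exposure. After 1 day the trefoil protein Tff2 was the only member called, higher with smoke, where 0.488% of all rows were called higher with smoke. In WT mice Tff2 was at 5.05, 6.18 and 7.18 after sham and at 6.34, 6.91 and 7.61 after smoke exposure (lowest, median and highest of 10 mice each). All 10 smoke-exposed WT mice were above the sham median, though only 2 were above every sham-exposed mouse. In βENaC mice it was at 6.16, 6.65 and 7.48 after sham and at 6.43, 7.34 and 7.62 after smoke. Over both genotypes the difference was 0.62 (SE 0.144, 1.54-fold, limma adjusted p = 0.00316). It was 1.73-fold in WT mice alone (adjusted p = 0.0171, with 0.463% of all rows called higher with smoke) and 0.45 (95% interval 0.04 to 0.86, adjusted p = 0.236) in βENaC mice, where no member was called (0.775% of all rows were, and 2 members had an unadjusted p under 0.05). The exposure difference did not differ between the genotypes by the interaction test for any member after 1 day, where 0.00638% of all rows had an adjusted p under 0.05 and no member an unadjusted p under 0.05. Over both genotypes the marker means of neutrophils, club cells and ciliated cells were 0.42, 0.21 and 0.18 lower with smoke after 1 day. Of these markers, 1 of 6 neutrophil (Retnlg) and 1 of 5 club cell markers (Cckar) were called lower. The share of all rows called lower with smoke after 1 day is not given here, so these counts have no background. The neutrophil mean was 6.41 to 9.13 in sham-exposed and 6.41 to 8.21 in smoke-exposed WT mice, and over all 79 mice its deviations had r = −0.45 with those of Tff2. Their part in the Tff2 difference was not tested.

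Clca3 was higher with smoke after 1 day in size but not by the test (1.15, 95% interval 0.12 to 2.17, limma adjusted p = 0.167). Its mean ± SD was 9.24 ± 1.21 in smoke-exposed and 7.87 ± 2.19 in sham-exposed βENaC mice, and 6.77 ± 0.85 and 5.86 ± 2.06 in WT mice (n = 10 each). In this order of the 4 groups, the exposures did not differ past the threshold within either genotype, and sham-exposed βENaC against smoke-exposed WT mice was not fitted. The spread was wider in the sham-exposed mice of each genotype, from 4.70 to 11.09 and from 3.53 to 10.43, than in the smoke-exposed mice. Agr2 (0.34, 95% interval 0.03 to 0.65, adjusted p = 0.179) and Muc5ac (0.21, −0.18 to 0.61, adjusted p = 0.584) were not called, and Muc5b had a narrow interval around no change (−0.01, −0.19 to 0.18).

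After 5 days the members moved in both directions. The folding protein Agr2 was higher and Clca3 lower with smoke over both genotypes, where 0.581% of all rows were called higher and 0.577% lower. Agr2 was 1.60-fold higher (0.67, SE 0.134, limma adjusted p = 0.000768), and Clca3 was 3.05-fold lower (−1.61, SE 0.475, adjusted p = 0.0317). The Clca3 call was lost when any of 5 single mice was left out (adjusted p from 0.0502 to 0.0547) and without the 4 mice that stood apart (−1.57, adjusted p = 0.0529). The genotypes were therefore read separately, in a fit with a mean for each genotype and exposure.

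In βENaC mice after 5 days 3 members were called, Clca3 and Fcgbp lower and Agr2 higher, where 0.332% of all rows were called lower and 0.466% higher with smoke. Clca3 was at 11.08, 10.71, 10.58 and 10.24 in the 4 sham-exposed βENaC females and at 9.90, 11.36, 10.56, 9.75 and 10.67 in the 5 males. In the smoke-exposed females it was at 5.99, 6.44, 10.99, 6.40 and 6.62, and in the males at 5.99, 7.58, 7.69, 9.21 and 10.79. The sham-exposed mice were all high and close together, while 8 of the 10 smoke-exposed mice lay below every one of them and 2, 1 of each sex, lay among them. Clca3 was 6.71-fold lower with smoke (−2.75, SE 0.637, limma adjusted p = 0.0128; 7.77 ± 1.91 against 10.54 ± 0.52, SD, n = 10 and 9). The smoke-exposed mice were thus near the level of the sham-exposed βENaC mice after 1 day (7.87 ± 2.19, n = 10), and a change of the sham level with duration was not tested. The call held when each of the 39 mice was left out in turn (adjusted p at most 0.0349) and without the mice that stood apart (−2.64, adjusted p = 0.0319).

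Fcgbp followed the same mice. It was at 7.06, 6.18, 6.29 and 5.85 in the sham-exposed βENaC females and at 6.39, 7.36, 6.07, 4.93 and 5.97 in the males. After smoke it was at 4.08, 4.66, 6.93, 3.93 and 4.43 in the females and at 4.34, 4.79, 4.73, 5.35 and 6.78 in the males. The values at 6.93 and 6.78 came from the 2 mice whose Clca3 was also high, and 7 of 10 smoke-exposed mice were below every sham-exposed mouse. Fcgbp was 2.33-fold lower with smoke (−1.22, SE 0.305, limma adjusted p = 0.0233). This call was lost without any of 5 single mice (adjusted p from 0.0512 to 0.0674) and without the mice that stood apart (−1.17, adjusted p = 0.0541).

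In Muc5ac the difference was smaller and did not pass. In the smoke-exposed βENaC mice it was at 4.77, 4.75, 7.08, 4.94 and 4.79 in females and at 4.49, 4.59, 4.51, 5.52 and 6.62 in males, against 5.22, 5.45 and 7.29 (lowest, median and highest) in the 9 sham-exposed mice. Again 7 of 10 smoke-exposed mice were below every sham-exposed mouse, and the same 2 mice were high. The difference was −0.60 (95% interval −1.14 to −0.06, limma adjusted p = 0.331). It was called when 1 of these 2, female replicate 3, was left out (−0.80, adjusted p = 0.0406), and leaving out each of the other mice gave −0.41 at the smallest and adjusted p up to 0.556.

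Agr2 moved the other way between these groups. It was at 5.79, 6.32 and 6.81 (lowest, median and highest) in sham-exposed and at 6.20, 6.99 and 7.74 in smoke-exposed βENaC mice, and 8 of 10 smoke-exposed mice were above every sham-exposed one. The 1.65-fold rise (0.72, SE 0.193, limma adjusted p = 0.0391) lost its call when any of 12 mice was left out and without the mice that stood apart (0.72, adjusted p = 0.0649). In WT mice Agr2 was at 4.34, 4.55 and 6.14 after sham and at 4.88, 5.41 and 6.04 after smoke, with all 9 smoke-exposed mice above the sham median. The WT difference was of like size and just missed the threshold (0.63, 95% interval 0.25 to 1.01, adjusted p = 0.0734).

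The other members were not called in βENaC mice after 5 days. Itln1, at 4.34, 5.03 and 5.94 after sham and at 4.91, 5.74 and 6.36 after smoke, differed by 0.42 (95% interval 0.09 to 0.74, limma adjusted p = 0.236). The intervals were −0.06 to 0.45 for Muc5b and −0.28 to 0.15 for Bpifb1. In WT mice no member was called with smoke after 5 days (0.915% of all rows were, and 1 member, Agr2, had an unadjusted p under 0.05). WT Clca3 was at 3.36, 6.10 and 9.44 after sham and at 3.25, 5.61 and 7.81 after smoke, a difference of −0.52 with an interval of −1.78 to 0.74. The WT intervals also held 0 for Fcgbp (−0.38 to 0.83) and Muc5ac (−0.37 to 0.69).

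**Figure D2:**
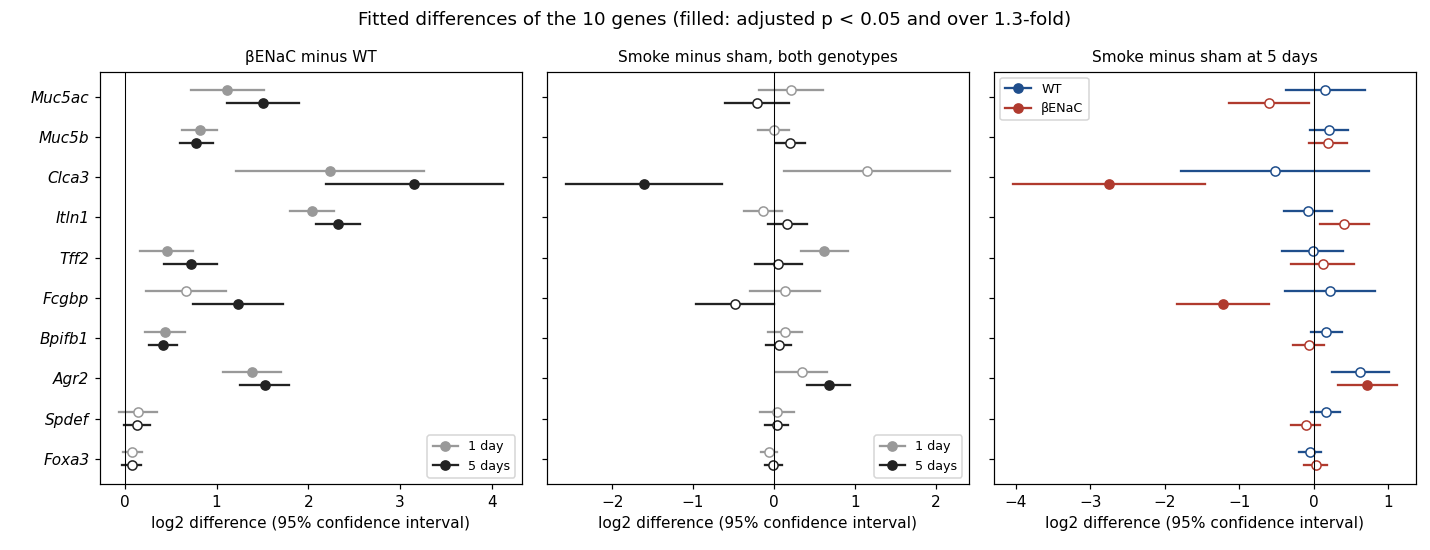
Fitted log2 differences (x axis) of the 10 genes (y axis) with 95% confidence intervals as lines: βENaC minus WT at both durations, smoke minus sham over both genotypes at both durations, and smoke minus sham within each genotype after 5 days. Filled points passed the test and open points did not; in βENaC mice after 5 days Clca3 is at −2.75, Fcgbp at −1.22 and Agr2 at 0.72.

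The genotype difference could also be read within each exposure, in the same mice as the exposure differences above. After 1 day 3 members, Itln1, Agr2 and Muc5b, were called higher in βENaC among sham-exposed mice (0.478% of all rows were). Among smoke-exposed mice Muc5ac and Bpifb1 were called as well, 5 in all (1.08% of all rows). Clca3 in sham-exposed mice was 2.01 (95% interval 0.55 to 3.48, limma adjusted p = 0.184) and Muc5ac 0.87 (adjusted p = 0.107), and both were called without the WT female replicate 5 (2.54, adjusted p = 0.0403, and 1.06, adjusted p = 0.0207). After 5 days 8 members were called higher in βENaC among sham-exposed mice (1.85% of all rows were), and Clca3 was 19.0-fold higher (4.24, limma adjusted p = 1.55e-05), Fcgbp 3.84-fold and Muc5ac 3.67-fold. Among smoke-exposed mice 5 members were called higher (0.66% of all rows were), namely Itln1, Agr2, Muc5ac, Tff2 and Muc5b. Tff2 lost its call without any of 29 of the 39 mice among sham-exposed and any of 8 among smoke-exposed mice (adjusted p up to 0.122 and 0.0896), and in both without the mice that stood apart (0.0567 and 0.0678). After smoke Clca3 (2.02, 95% interval 0.72 to 3.31, adjusted p = 0.103), Fcgbp (0.49, −0.13 to 1.11, adjusted p = 0.541) and Bpifb1 (0.29, 0.08 to 0.51, adjusted p = 0.164) were not called. Itln1 was higher against WT in size after smoke (2.58, 5.96-fold) than after sham exposure (2.08, 4.23-fold), a change that did not pass adjustment in the interaction test below. Agr2 was 2.97-fold higher after smoke and 2.78-fold higher after sham exposure.

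Whether the exposure difference depended on the genotype after 5 days was tested by an interaction term. No member passed after adjustment, and neither did any of the 31350 rows (0% called). At an unadjusted p under 0.05 there were 3 members: Fcgbp (−1.45, 95% interval −2.31 to −0.58, limma adjusted p = 0.957), Clca3 (−2.23, −4.03 to −0.42, adjusted p = 1) and Itln1 (0.50, adjusted p = 1). A fall of Clca3 and Fcgbp with smoke that is particular to βENaC mice was therefore not shown across the table.

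Whether smoke acted differently after 5 days than after 1 day depended on the fit for Clca3. With exposure and duration alone, no member passed (0.612% of all rows did), and Clca3 (−2.52, limma adjusted p = 0.22) and Tff2 (−0.52, adjusted p = 0.436) had an unadjusted p under 0.05. With genotype and sex also in the fit Clca3 passed (−2.75, 95% interval −4.17 to −1.34, adjusted p = 0.0248, against 1.49% of all rows), and it passed when each of the 79 mice was left out and without the mice that stood apart (−2.78, adjusted p = 0.0405). The smoke difference itself was 1.15 after 1 day, which did not pass, and −1.61 after 5 days. In a fit added after the data were seen, the change within βENaC mice was −4.12 (−6.09 to −2.15, adjusted p = 0.0434, against 0.233% of all rows), a call lost in an ordinary linear model, without any of 24 of the 79 mice and without the mice that stood apart (adjusted p = 0.101). Within WT mice it was −1.44 (−3.39 to 0.51, adjusted p = 0.748), and the change did not differ between the genotypes after adjustment for any member (0% of all rows passed; Clca3 −2.68, −5.46 to 0.09). The βENaC means behind it were 7.87 after sham and 9.24 after smoke at 1 day, and 10.54 and 7.77 at 5 days. The sham means thus differed in size between the durations as well, which was not tested. The 1-day and 5-day mice were separate animals.

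The 2 smoke-exposed βENaC mice whose Clca3 was high after 5 days also had the highest mean of 5 eosinophil markers in their group. This mean was 5.55 in the female and 4.71 in the male, and it was 4.04 to 4.21 in the other 8. Of these markers, Epx and Prg2 averaged 2.76 and 3.22 over all mice, near the lower end of the array's range. Single markers were not read in these mice, and whether the mean is particular to eosinophils was not tested. In the sham-exposed βENaC mice, all high in Clca3, the eosinophil mean ran from 3.93 to 5.47, so a low marker mean also occurred beside high Clca3. The eosinophil mean was 0.25 lower with smoke after 1 day and 0.34 lower after 5 days, and 1 of its 5 markers, Ccr3, was called lower after 5 days (−0.91, limma adjusted p = 0.0219). Of all rows, 0.577% were called lower with smoke after 5 days. The female was also at the low end of the club cell markers (10.89) and near the high end of the alveolar macrophage markers (10.37), and it was lowest in ciliated cell markers, at 7.09 against 7.53 to 7.77 in the other 9. In the male these means were 11.1, 10.1 and 7.55. The part of these cells in the members' levels was not tested.

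**Figure D3:**
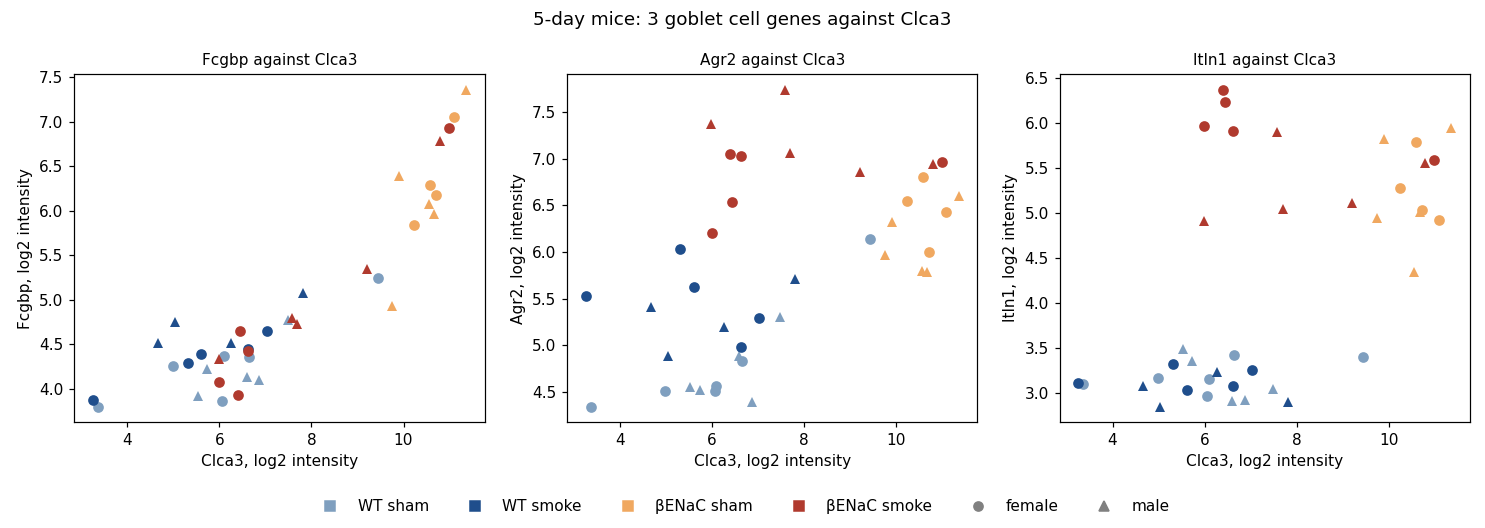
Levels of Fcgbp, Agr2 and Itln1 (y axes, log2 intensity) against that of Clca3 (x axis, log2 intensity) in the 39 mice after 5 days, 1 point per mouse, with genotype and exposure as colours, females as circles and males as triangles. Smoke-exposed βENaC mice spread along Clca3 from 5.99 to 10.99 and their Fcgbp follows, from 3.93 to 6.93, while their Itln1 stays above every WT mouse at any Clca3 level.

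No member was called for sex after 1 day (0.845% of all rows were; 1 member had an unadjusted p under 0.05). That member was Tff2, higher in males by 0.43 (95% interval 0.14 to 0.72, limma adjusted p = 0.051), which passed in several other fits. After 5 days none was called either (0.198% of all rows; 2 members, Bpifb1 and Itln1, had an unadjusted p under 0.05, both lower in males).

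The members were also compared mouse by mouse, as deviations from the mean of each of the 16 groups. Of 45 pairs of members, 31 were correlated over the 79 mice (adjusted p under 0.05, permutation test with 100000 draws, Benjamini-Hochberg over the 45 pairs), all 31 positively and all 31 also by rank. The share of pairs of other rows that would pass was not taken, so this count has no background to be read against. A tight set was Clca3, Muc5ac and Fcgbp. Muc5ac and Fcgbp had r = 0.88 and Spearman's rho = 0.79, Clca3 and Fcgbp 0.83 and 0.81, and Clca3 and Muc5ac 0.79 and 0.76 (permutation p = 1e-05 for each r, the smallest 100000 draws can give, adjusted p = 5.62e-05). Without the 2 mice farthest from the median, these r were 0.85, 0.79 and 0.79, and all 31 pairs kept their sign. Within the 1-day and within the 5-day mice the r were 0.86 and 0.90, 0.86 and 0.81, and 0.82 and 0.76.

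Pairs among Tff2, Bpifb1, Muc5b and Agr2 came next. Tff2 and Bpifb1 had r = 0.79 (rho 0.72), Muc5b and Bpifb1 0.70 (0.66), Muc5b and Tff2 0.66 (0.66), Muc5b and Agr2 0.63 (0.58) and Tff2 and Agr2 0.60 (0.57), each at the smallest permutation p of 1e-05. These were not a set apart, since Bpifb1 and Agr2 had r = 0.53, and pairs across had like values (Clca3 and Tff2 0.58, Muc5ac and Agr2 0.52). Muc5ac and Muc5b, the 2 gel-forming mucins, had r = 0.48 (rho 0.48, permutation p = 2e-05, adjusted p = 0.0001). Itln1, for all its difference between genotypes, was unrelated in size to Clca3 (r = 0.01) and Fcgbp (r = 0.01) among mice of a group. Within βENaC mice alone these r were −0.03 and −0.01.

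**Figure D4:**
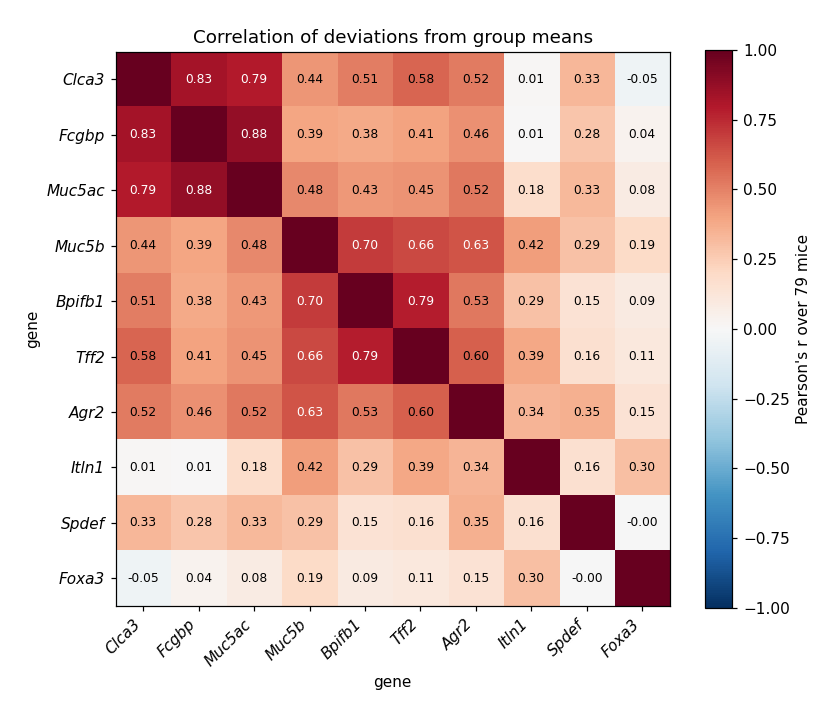
Pearson correlation between the 10 genes (both axes) over 79 mice, after the mean of each of 16 groups was taken out of every gene; colour and number give r. Clca3, Muc5ac and Fcgbp form a block at 0.79 to 0.88, and Foxa3 has its highest r, 0.30, with Itln1.

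Several pairs differed in size between the genotypes, which was not tested. In WT mice Tff2 went with Clca3 (r = 0.81) and Fcgbp (0.77), and in βENaC mice the same r were 0.22 and 0.18. Muc5ac and Agr2 had r = 0.84 in WT and 0.40 in βENaC mice. The sham-exposed WT female replicate 5 after 1 day was the highest WT mouse in Muc5ac (5.51), Agr2 (6.78), Clca3 (10.43) and Fcgbp (6.24). The WT r of these pairs were not taken without her. Itln1 had r = 0.15 with Tff2 in WT and 0.68 in βENaC mice, and 0.14 and 0.65 with Muc5b. Its WT values, 2.84 to 3.48 (SD 0.16), were near the lower end of the array's range. The WT r of Itln1 can therefore not show whether it is related to these genes there. Clca3 and Fcgbp were close in both genotypes (0.87 and 0.88).

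Over all 21836 other rows with a symbol, the rows nearest to Clca3 by the same r were Fcgbp (0.83), Chil4 (0.83), a chitinase-like protein of the airway, Muc5ac (0.79), Retnla (0.73), a resistin-like protein, and Fer1l6 (0.72). The rows nearest to Muc5ac were Fcgbp (0.88), Chil4 (0.79), Clca3 (0.79), Fer1l6 (0.78) and Fbp1 (0.73). The rows nearest to Muc5b were Bpifb1 (0.70), Wfdc2 (0.67), Reg3g (0.67), Tff2 (0.66) and Agr2 (0.63), Wfdc2 and Reg3g being secreted host-defence proteins. The lists of Clca3 and Muc5ac thus held 3 rows in common (Fcgbp, Chil4 and Fer1l6), and that of Muc5b none of these. The levels of alveolar macrophage markers moved with the first set over the 79 mice (r = 0.70 for Fcgbp, 0.61 for Muc5ac and 0.57 for Clca3), and club cell markers against it (−0.57, −0.49 and −0.47), as a description. The macrophage list holds Chil3, and an r of the list without it was not taken. Whether the probes of Chil3 also bind RNA of Chil4 was not tested. Eosinophil markers had r = 0.45 with Fcgbp. Ciliated cell markers had r = 0.44 with Bpifb1, 0.39 with Muc5b and 0.38 with Tff2. Neutrophil markers had r = −0.48 with Bpifb1, −0.45 with Tff2 and −0.24 with both Clca3 and Muc5b. The part of these cells in the correlations was not tested.

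Other genes that act around mucin production were read by list. Of all rows, 1.14% were called higher in βENaC after 1 day and 1.88% after 5 days. Of 7 other mucins on the array, the membrane mucin Muc4 was the only one called for genotype, 1.83-fold higher in βENaC after 1 day (limma adjusted p = 3.05e-11) and 1.75-fold after 5 days (adjusted p = 1.1e-13), and Muc20 fell with smoke after 1 day (−0.43, adjusted p = 0.00017). Of 18 genes of mucin O-glycosylation 2 were called higher in βENaC after 1 day and 4 after 5 days, against 1.14% and 1.88% of all rows, none lower and none with exposure. These were the glycosyltransferases B3gnt7 (1.73-fold and 2.05-fold), Galnt6 (1.39-fold and 1.59-fold) and, after 5 days, Fut2 (1.32-fold) and Gcnt1 (0.38 on the log2 scale). Of 14 genes of granule release, P2ry2, the airway's purinergic receptor for mucin secretion, was called higher in βENaC at both durations (1.37-fold at each). Of 12 genes of mucin folding and endoplasmic reticulum stress none was called for genotype or, over both genotypes, for exposure, and 1 was called lower with smoke in βENaC mice after 5 days.

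Of 17 upstream regulators, the epithelial cytokine Il33 was called higher in βENaC at both durations (1.53-fold and 1.66-fold, limma adjusted p = 0.00306 and 0.000102). Il4 was called higher after 5 days (1.32-fold, limma adjusted p = 0.049), close to both thresholds. Its mean level, 3.26, was near the lower end of the array's range, and its call was not tried in other fits. Of all rows, 1.14% were called higher in βENaC after 1 day and 1.88% after 5 days. Il13 was not called (0.36, adjusted p = 0.309, and 0.52, adjusted p = 0.0634), and the epidermal growth factor receptor ligand Areg was called lower with smoke after 5 days (−0.42, adjusted p = 0.0135). Of 17 other secretory and Clca family genes 5 were called higher and 1 lower in βENaC at both durations, against the same 1.14% and 1.88% of all rows called higher. The share of all rows called lower is not given here. Gp2, a glycoprotein of secretory granules, was 7.51-fold and 9.80-fold higher, the anion exchanger Slc26a4 4.30-fold and 8.39-fold, Clca3b 5.12-fold and 5.21-fold, and Pigr, the transporter of secretory antibodies, 2.32-fold and 2.52-fold. With smoke after 5 days 4 of these 17 rose and none fell, where 0.581% of all rows were called higher and 0.577% lower. Among the 4 was Clca3b (1.72-fold, limma adjusted p = 0.00258), the direction opposite to that of Clca3. Whether probes of one Clca gene also bind RNA of another was not tested.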

How the data were processed

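Per the labels and the study's methods, the authors deposited 1 table of log2 intensities, made with RMA (background correction, an adjustment for the GC content and sequence of probes, quantile scaling and median polish). Affymetrix Expression Console 1.4 served for quality control and Partek 6.6 for the normalization. All arrays were on 1 plate. The genome build of the array annotation is not given in the sources used here. The 79 columns were matched to mice by title and none was left out. The smoke-exposed WT males after 5 days have replicates 2 to 5 only. Values ran from 1.98 to 13.41 and array medians from 4.44 to 4.55. No depth exists for arrays, and the number of mice limits the precision. Nothing says that mice of a group came from separate litters.

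Rows were named through RefSeq accessions (21057 rows) or the study's tables (780). The 10 genes, the marker and pathway lists and the tests were chosen with earlier results of these data known. Differences were fitted with limma 3.58.1 in R 4.3.3 on all 31350 rows, at each duration, with genotype, exposure and sex, and with a mean per genotype and exposure plus sex for comparisons within a genotype or exposure. Adjusted p-values are Benjamini-Hochberg over all rows. A call is an adjusted p under 0.05 and over 1.3-fold, and interactions need the adjusted p alone. Named list genes are at most 4 per list by size of difference among those called. Correlations used deviations from group means and 100000 permutations (scipy 1.17.1, numpy 2.4.6, Python 3.11.15). The scripts were tested on simulated data. Alternatives were an ordinary linear model, other normalizations, filters, priors, thresholds, array weights, a replicate block, 1 fit over both durations, and leaving out each mouse or the 4 mice that stood apart.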

Additional observations from a re-analysis of the deposited data

Results flagged for a closer look

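In 13 of 160 combinations of a member and a group, 1 mouse lay far from the rest of its group, 11 times as the highest and 2 times as the lowest, in 9 mice. Chance alone flags about 5% of such combinations. Members were correlated and some mice were flagged for several members, so the combinations are not independent. An excess over this rate was not tested. The smoke-exposed βENaC female replicate 3 after 5 days was the high mouse for Muc5ac (7.08), Clca3 (10.99), Fcgbp (6.93) and Spdef (4.15). For Spdef the other mice of the group were at 3.89 to 3.95, a narrow gap beside its within-group SD of 0.29 over all groups. The sham-exposed βENaC male replicate 2 after 5 days was high for Muc5ac (7.29). The smoke-exposed WT male replicate 1 after 1 day was high for Muc5ac (4.31) and Bpifb1 (10.63). Itln1 was high in the sham-exposed βENaC female replicate 5 after 1 day (5.86), and Fcgbp in the sham-exposed WT male replicate 4 after 1 day (4.73), which also carried the high skeletal muscle markers. Agr2 was high in the sham-exposed WT females replicate 5 after 1 day (6.78) and replicate 4 after 5 days (6.14). The low values were Muc5b in the smoke-exposed βENaC male replicate 5 after 1 day (9.001) and Foxa3 in the smoke-exposed βENaC male replicate 4 after 5 days (2.95). Clca3 also stood out because its difference with smoke changed between 1 and 5 days, by −2.75 with genotype and sex in the fit and by −4.12 within βENaC mice.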

How the results depend on the processing

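The number of mice limits the precision, and several calls sat near the threshold. No called member changed direction under any alternative. The count of members called for genotype stayed between 5 and 8 after 1 day and between 7 and 8 after 5 days. For exposure after 1 day it was 1, and 1 to 3 over the fits that left out 1 mouse: without the sham-exposed WT female replicate 5, Clca3 (1.41, limma adjusted p = 0.0407) and Agr2 (0.45, adjusted p = 0.00727) were also called. For exposure after 5 days it was 2, fell to 1 over those fits at the lowest and to 1 without the 4 mice that stood apart, the lost member being Clca3; the 5 mice were the sham-exposed βENaC female replicate 1 and male replicate 2, the smoke-exposed βENaC male replicate 1, the sham-exposed WT female replicate 4 and the smoke-exposed WT female replicate 2. For sex after 1 day it was 0, and 1 (Tff2) without the dimmest 30% of rows, with array weights, with the replicate block, in 1 fit over both durations and at the highest with 1 mouse left out. For the change of exposure with duration it was 0, and 1 (Clca3) with genotype and sex in the fit and within βENaC mice. Tff2 for genotype after 1 day was not called with median centering, quantile normalization, an ordinary linear model, a trended robust prior or a 1.5-fold threshold, and Fcgbp was called there without the dimmest 30% of rows (adjusted p = 0.0417). Agr2 in WT mice after 5 days was called without the sham-exposed female replicate 4 (0.77, adjusted p = 0.00618). Same-numbered mice of different groups did not deviate together (median r of 0.0063 over 570 pairs, against −0.0010 over 2354 pairs of different numbers), so the numbers were not taken to pair mice. With the replicate block, Agr2 in βENaC mice after 5 days (0.74, adjusted p = 0.0535) and Tff2 for genotype among sham-exposed mice after 5 days (0.66, adjusted p = 0.0542) lost their calls, and the count of correlated pairs was 31, as it was with median centering. The causes were not tested.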
